A study of Mus musculus with 6 samples.

Results

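The genes described here carry out the interferon response and the presentation of antigen in the liver: 20 interferon-induced genes, 9 genes of class I presentation and 5 of class II presentation, 34 names in all. Members were found as every probe set, the unit of these arrays that reports 1 transcript region, that lies in both deposited tables and that the platform annotation gives to exactly 1 of those symbols. This gave 53 probe sets for 32 of the 34 genes, out of 22626 probe sets in the whole series. Isg15, whose only probe set carries several symbols, and Ifi44 were not analysed here.

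Livers of C57BL/6J mice on a control diet or on a high-fat diet, written HFC in the design text, were hybridised to Affymetrix arrays after 2, 4 and 10 weeks, a single array for every combination, which makes 6. All animals are thus of 1 inbred strain and the labels name no genetic change; age, sex and the makeup of the diets are not given in the sources used here, nor whether the RNA of several mice was pooled. Week 4 was run on a bigger array than weeks 2 and 10 and scaled separately, so diets were compared within a week, and levels were set across time only between weeks 2 and 10. Hepatocyte markers such as Alb were above the floor, the lowest intensity used as a measured value (155.0 after centring), on every array, for 9 of 9 markers.

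Interferons are secreted proteins that warn cells of infection. Type I interferons and interferon gamma bind different receptors, both of which signal through Janus kinases to STAT proteins and IRF factors, and these switch on a shared set of genes that block viruses and enlarge antigen presentation. In class I presentation the immunoproteasome cuts proteins, the TAP transporter carries the peptides into the endoplasmic reticulum, and tapasin helps load them on a heavy chain paired with beta-2 microglobulin. Class II molecules, held by the invariant chain Cd74 until they are loaded, show outside proteins to helper T cells and are made chiefly by macrophages, dendritic cells and B cells, which in the liver include the resident Kupffer cells.

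As a group the interferon-induced genes lay above the control under the high-fat diet in all 3 weeks, whereas class I and class II genes had no such shared direction. Among the 17 interferon-induced genes tested, the median log2 difference, high-fat minus control, was 0.31 at week 2, 0.32 at week 4 and 0.53 at week 10, where all 8866 genes tested had medians of -0.03, 0.00 and 0.02. Class I had medians of -0.17, -0.23 and 0.17 over 9 genes, and class II had -0.08, 0.01 and 0.36 over 5 genes. Without probe sets that several transcripts share, the medians of week 10 were 0.43 for class I and 0.00 for class II, over fewer genes. B2m, H2-K1, Psmb8 and Tap2 of class I and H2-Aa, H2-Ab1 and Cd74 of class II have only such probe sets and drop out. Directions at week 2 hold after each array was centred: with the intensities as deposited, where the control array of that week was scaled higher, all genes had a median of -0.67 at week 2 and the interferon-induced genes one of -0.33, which is 0.34 above it, against 0.35 above it after centring. Of the interferon-induced genes 9 were higher at all 3 weeks, against 8.09% of all genes tested, and with the intensities as deposited 0 were. After centring these are Irf1, Ifit3, Oas1a, Oasl2, Gbp3, Ifi35, Usp18, Ifih1 and Irgm1, with Irf1 at only 0.02 and 0.05 at weeks 2 and 4. The shares of all genes include genes at the floor on both arrays of a week, which cannot count as higher. At week 4, 3005 of all genes were higher and 4069 lower. Of the 17 interferon-induced genes, 16 were above the floor on all 6 arrays, so the shares come from unlike sets. Without week 10, 10 of 17 were higher at both remaining weeks, against 18.7% of all genes; without week 4, 11 of 17 were, against 21.7%; and without week 2, 11 of 17 were, against 16.1%. In tissue RNA of this kind, more cells of a type and more RNA per cell cannot be told apart.

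**Figure D1:**
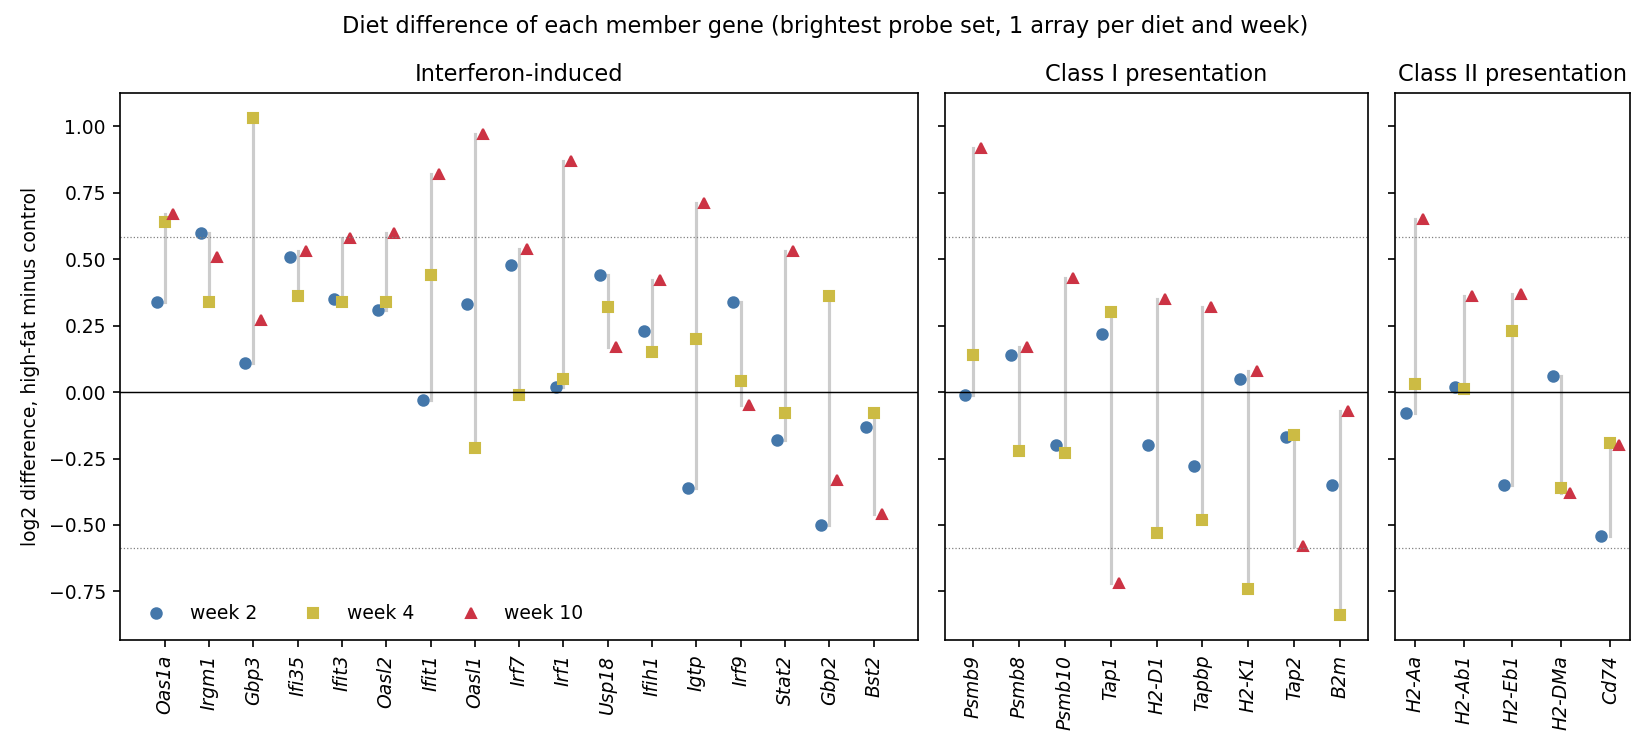
Each point is the log2 difference in signal intensity, high-fat minus control, of 1 gene at 1 week, on its brightest probe set and with 1 array per diet; the grey line joins the lowest and highest week and the dotted lines mark 1.5-fold. After centring, most interferon-induced genes lie above 0 at each week (at week 2 their median is -0.33 with the intensities as deposited), whereas class I and class II genes lie on both sides of it.

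Over the 3 weeks no member passed the test. The diets were compared with limma with week as a block, on all 14533 probe sets that were above the floor on at least 3 arrays, and 2 of these, or 0.0138%, had an adjusted p under 0.05. None of the 46 member probe sets tested was among them. At the unadjusted threshold of 0.05 there were 4 member probe sets, against 4.03% of all probe sets, namely those of Oas1a and Irgm1 with higher values and a probe set each of B2m and Tapbp with values below the control. The test takes a difference that changes between weeks as spread, and 3 differences give it little precision. Every value below is therefore a difference between single arrays, and none was shown to exceed the spread between animals.

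Among the effectors of the response, Oas1a and Irgm1 had the highest mean differences. Oas1a makes a short RNA that activates the nuclease RNase L when double-stranded RNA is present. Its intensity, given as control versus high-fat here and below, was 528.0 versus 670.0 at week 2, 416.0 versus 647.0 at week 4 and 592.0 versus 940.0 at week 10. The high-fat array was the higher of the pair each time, by log2 differences of 0.34, 0.64 and 0.67, and the mean difference of 0.55 (standard error 0.216, n = 3 weeks) was the highest of any member probe set, at a limma adjusted p of 0.993, which ranged from 0.581 to 1 over 14 alternatives. Irgm1, a GTPase that acts against bacteria inside cells, read 511.0 versus 774.0 at week 2, 1144 versus 1447 at week 4 and 662.0 versus 945.0 at week 10. All 3 high-fat values were again the higher of the pair, with a mean difference of 0.48 (standard error 0.214, n = 3 weeks, limma adjusted p = 0.993, ranging from 0.591 to 1).

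The promoters of both genes, and that of Ifit1, hold the letters by which the interferon-activated STAT and IRF complex is known to recognise its targets. They are shown because these genes either had the smallest unadjusted p among the higher members or, as Ifit1, passed 1.5-fold between the diets at week 10 alone. The interferon-induced genes Igtp, Irf1, Oasl1 and Oasl2 also passed 1.5-fold at week 10 alone and are not printed, so Ifit1 does not stand for them. The promoters of B2m and Tap1 of the class I arm are given for contrast. Each run is the 250 bases before the gene's start, 5′ to 3′ on the gene's strand, from RefSeq on build GRCm38.p6; capitals mark matches to GAAANNGAA, the core of the interferon-stimulated response element, or to TTCNNNGAA, the interferon gamma activated site, on either strand, and the Tap1 run holds none.
Oas1a, chr5:120907526-120907775, minus strand: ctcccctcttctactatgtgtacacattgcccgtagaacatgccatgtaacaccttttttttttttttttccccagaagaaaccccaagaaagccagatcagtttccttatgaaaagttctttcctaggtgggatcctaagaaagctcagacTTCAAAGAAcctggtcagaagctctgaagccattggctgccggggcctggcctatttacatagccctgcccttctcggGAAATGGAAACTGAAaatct
Irgm1, chr11:48871421-48871670, minus strand: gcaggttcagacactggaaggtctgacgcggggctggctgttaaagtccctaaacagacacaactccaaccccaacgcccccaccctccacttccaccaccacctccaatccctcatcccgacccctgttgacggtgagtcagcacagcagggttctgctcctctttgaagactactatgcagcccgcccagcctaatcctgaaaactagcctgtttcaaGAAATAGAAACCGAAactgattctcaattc
Ifit1, chr19:34640639-34640888, plus strand: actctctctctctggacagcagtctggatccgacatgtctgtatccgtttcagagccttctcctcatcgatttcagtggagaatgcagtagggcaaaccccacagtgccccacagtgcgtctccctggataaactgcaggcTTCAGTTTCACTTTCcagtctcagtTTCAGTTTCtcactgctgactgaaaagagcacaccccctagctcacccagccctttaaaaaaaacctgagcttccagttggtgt
B2m, chr2:122147437-122147686, plus strand: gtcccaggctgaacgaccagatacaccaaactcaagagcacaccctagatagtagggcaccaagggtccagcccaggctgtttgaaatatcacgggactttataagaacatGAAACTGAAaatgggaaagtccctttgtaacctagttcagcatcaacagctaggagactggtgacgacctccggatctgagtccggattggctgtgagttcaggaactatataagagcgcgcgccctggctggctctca
Tap1, chr17:34187306-34187555, plus strand: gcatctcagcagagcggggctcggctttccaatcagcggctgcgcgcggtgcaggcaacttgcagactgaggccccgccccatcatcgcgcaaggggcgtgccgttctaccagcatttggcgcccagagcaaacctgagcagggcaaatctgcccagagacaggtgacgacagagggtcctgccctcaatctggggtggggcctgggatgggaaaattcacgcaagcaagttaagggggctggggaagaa

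Windows from 250 bases before to 50 after the start were found for 28 of the 32 genes, not for Cd74, H2-Ab1, Tap2 and Usp18. GAAANNGAA lay in a window of 10 of 17 interferon-induced genes, 1 of 8 class I genes, B2m, and 0 of 3 class II genes. It lay in 8.56% of all 32851 promoter windows. A gene counts if any of its windows matches, with 21 windows for the 17 interferon-induced genes, whereas the shares of all are per window. These 17 hold Ifit2, which was not tested for diet, and lack Usp18. In Oas1a the matches begin 20 and 14 bases before the start, in Irgm1 30 and 24, and in Ifit1 109, 103 and 84. TTCNNNGAA lay in a window of 6 of 17, 1 of 8 and 0 of 3 genes and in 8.3% of all windows, and a match of each motif overlapped in Bst2. CCAAT, the core of the Y box that class I and class II promoters are known for, on either strand, lay in a window of 7 of 17, 6 of 8 and 3 of 3 genes and in 37.4% of all windows. The windows of Oasl1, Oasl2, Irf7 and Irf9 held neither interferon motif, and those of Irf1 held TTCNNNGAA but not GAAANNGAA. Oasl1 without a match had the largest week 10 difference of the interferon-induced genes, and Bst2 with several was lower at each week. Oas1a and Irgm1, which hold matches, had the highest mean differences. Whether the differences follow the matches was not tested. A match describes the letters of this window and says nothing of binding.

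The IFIT and OAS families, proteins that bind viral RNA or answer to it, differed by week. Ifit1 read 461.0 versus 451.0 at week 2, 485.0 versus 658.0 at week 4 and 453.0 versus 802.0 at week 10. The diets were within 1.02-fold at week 2 and 1.77-fold apart at week 10, and the control arrays of weeks 2 and 10 differed little. Ifit3 was higher at each week, with log2 differences of 0.35, 0.34 and 0.58. Ifit2 was above the floor on 1 array alone, the high-fat array of week 4 at 205.0, and was not tested. Oasl1, an OAS-like protein that also tempers Irf7 translation, read 381.0 versus 481.0 at week 2, 468.0 versus 404.0 at week 4 and 366.0 versus 717.0 at week 10. Its log2 differences of 0.33, -0.21 and 0.97 change sign, and of the 4 arrays of weeks 2 and 10 the high-fat one of week 10 is the highest. Oasl2 was higher by at least 0.31, by 0.34 and by at least 0.60, the bounds coming from control arrays at the floor.

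**Figure D2:**
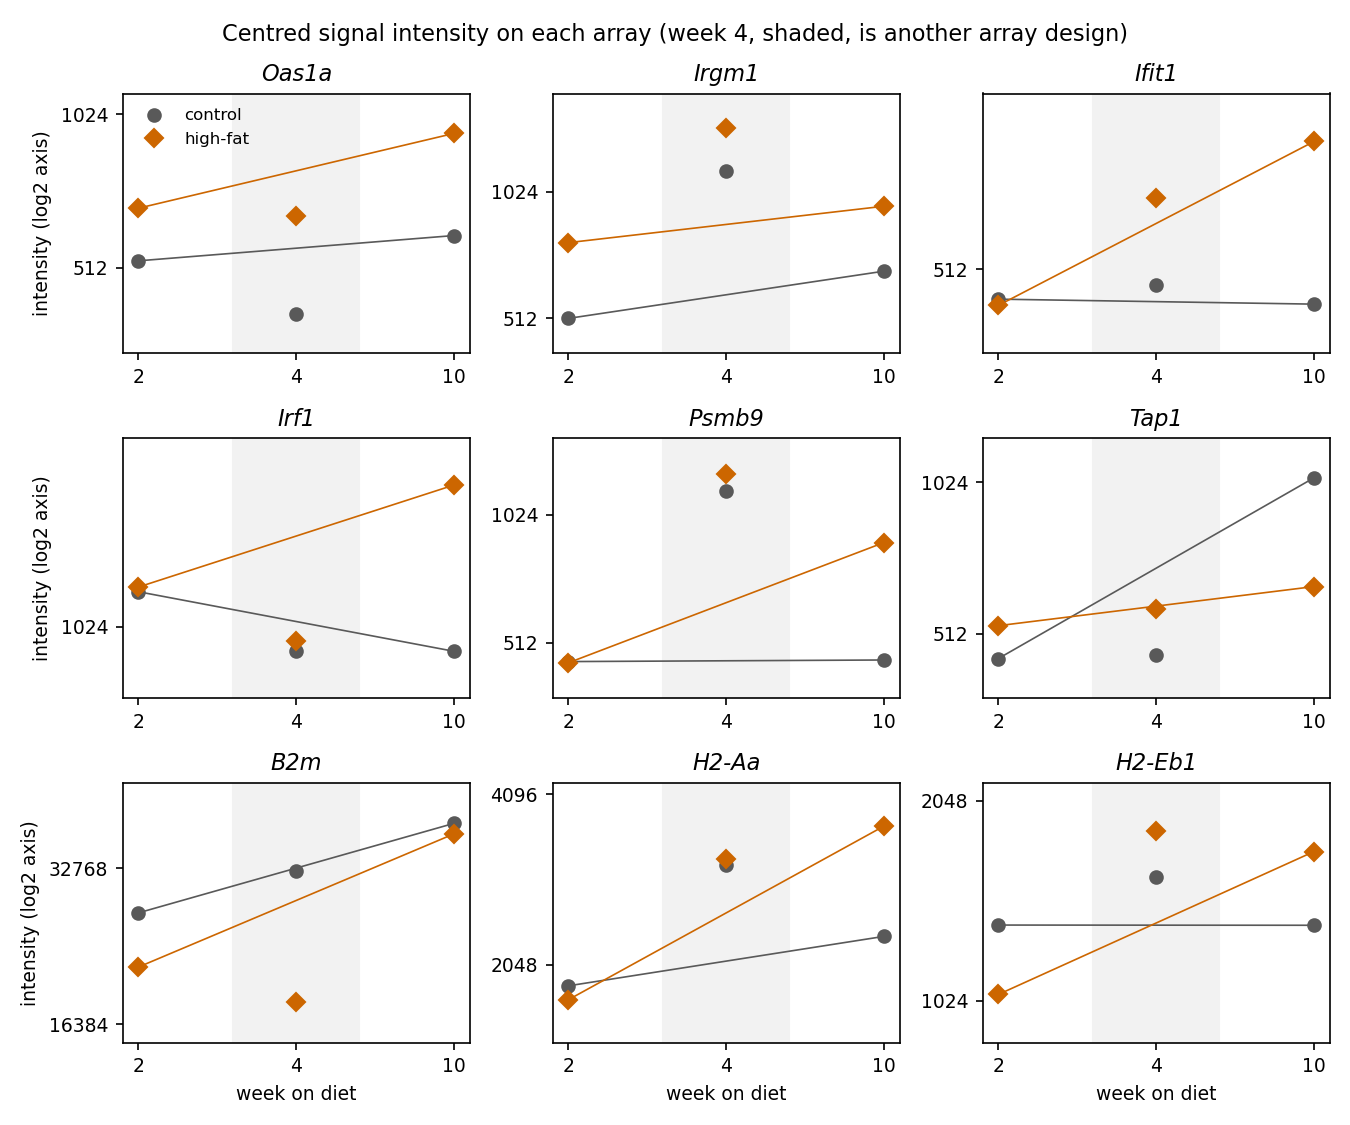
Points give the centred signal intensity, on a log2 axis, of 9 member genes on each array by week and diet; lines join weeks 2 and 10, which share an array design, and the shaded points of week 4 are of another design. The high-fat array is the higher one at each week for Oas1a and Irgm1, while Ifit1, Irf1 and Psmb9 part from the control at week 10.

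The transcription factors among the members were close to the control at week 4. Irf1, which interferon gamma induces and which drives class I genes, had log2 differences of 0.02, 0.05 and 0.87. Its intensities of 1162 versus 1182 at week 2, 937.0 versus 972.0 at week 4 and 936.0 versus 1712 at week 10 show the high-fat array of week 10 above the other 3 arrays of its design. Irf7, the factor that amplifies type I interferon, had 0.48, -0.01 and 0.54. Stat2 and Irf9, which belong to the complex that binds the response element, had -0.18, -0.08 and 0.53 and 0.34, 0.04 and -0.05. A dimmer probe set of Stat2 read 0.00, -0.16 and -0.19, so its difference of week 10 differs between probe sets.

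The interferon-induced GTPases, which attack the vacuoles of microbes, had no common pattern over the weeks. Gbp3 read 293.0 versus 317.0 at week 2, 228.0 versus 464.0 at week 4 and 231.0 versus 279.0 at week 10. The 2.04-fold difference of week 4 was the largest of any interferon-induced gene at any week. Gbp2 had -0.50, 0.36 and -0.33, so it was higher at week 4 alone, and its other probe set was 0.85 higher at week 4 and lower by bounds of -0.17 and -0.02 at weeks 2 and 10, where the high-fat arrays were at the floor. Igtp read 1338 versus 1044 at week 2, 2076 versus 2379 at week 4 and 1421 versus 2324 at week 10, which is lower on the high-fat diet at week 2 and 1.64-fold higher at week 10.

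Among the remaining interferon-induced genes, Ifi35, which joins the factor Nmi, had log2 differences of 0.51, 0.36 and 0.53. On the larger array alone, its other probe sets gave 0.46 and -0.38 at week 4. Usp18, which removes Isg15 from proteins and damps the type I receptor, had 0.44, 0.32 and 0.17. Ifih1, a sensor of long double-stranded RNA, had 0.23, 0.15 and 0.42. Bst2, a tether that holds budding viruses at the cell surface, was lower at each week with -0.13, -0.08 and -0.46, the sole interferon-induced gene to be so, where 11.3% of all genes tested were lower at all 3 weeks.

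Counts past 1.5-fold are given for each week beside the shares of all genes tested, which were also largest at week 10. At week 2, 1 of the 31 member genes tested, Irgm1, was at least 1.5-fold higher on the high-fat array and 0 were lower, against 6.81% and 8.94% of all genes tested. At week 4, Oas1a and Gbp3 were higher and B2m and H2-K1 lower, against 3.83% and 6.67%. At week 10, 8 of 31 were higher, against 13.6%, and 1 was lower, against 12.7%. The 8 are Oasl1, Irf1, Ifit1, Igtp, Oas1a and Oasl2 among the 17 interferon-induced genes, Psmb9 of class I and H2-Aa of class II, and the lower one is Tap1. Class I and class II thus hold 1 of 9 and 1 of 5. The count of week 10 covers an array whose spiked-in control RNA stood apart: its cre signal after centring was 83556 on the control array, against 22516 to 51259 on the other arrays.

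Weeks 2 and 10 can also be read along time within a diet. The interferon-induced genes had a median log2 change from week 2 to week 10 of -0.03 for control and 0.29 for high-fat, where all genes tested had 0.01 and 0.10. Igtp changed by 0.09 for control and 1.16 for high-fat, Ifit1 by -0.03 and 0.83, and Psmb9 by 0.01 and 0.94. These genes lie at like levels on both control arrays, so their differences of week 10 come from the high-fat array of that week. Irf1 changed by -0.31 and 0.54, so both arrays enter its difference.

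The first step of class I presentation falls to the catalytic subunits of the immunoproteasome, Psmb8, Psmb9 and Psmb10, which take the places of Psmb5, Psmb6 and Psmb7. Psmb9 read 463.0 versus 460.0 at week 2, 1162 versus 1279 at week 4 and 467.0 versus 881.0 at week 10. The diets were within 1.10-fold at weeks 2 and 4 and 1.89-fold apart at week 10. Psmb10 had log2 differences of -0.20, -0.23 and 0.43 and Psmb8 had 0.14, -0.22 and 0.17. The constitutive subunits had 0.12, -0.19 and -0.33 for Psmb5, -0.29, -0.32 and 0.45 for Psmb6 and -0.45, -0.41 and 0.22 for Psmb7. At week 10 Psmb9 had 0.92 where its counterpart Psmb6 had 0.45, whereas Psmb10 and Psmb7 had the same signs at each week.

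Tap1 and Psmb9 lie head to head in the major histocompatibility complex on chromosome 17, Psmb9 at chr17:34182030-34187330 on the minus strand and Tap1 at chr17:34187556-34197225 on the plus strand of GRCm38.p6, and their promoter windows share 275 bases. The Tap1 run printed above covers, on the opposite strand, most of the 250 bases before Psmb9, which are chr17:34187331-34187580. At week 10 the pair stood on opposite sides of the control. Tap1, a subunit of the peptide transporter, read 457.0 versus 531.0 at week 2, 465.0 versus 574.0 at week 4 and 1044 versus 635.0 at week 10. At week 10 it was thus 1.65-fold below the control, and the control array of that week stands above the other 3 of its design. Its 3 other probe sets were below the floor on all arrays, so a second reading is missing. Tap2, the other transporter subunit, had -0.17, -0.16 and -0.58 and shares the direction of week 10.

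Tapbp, or tapasin, had -0.28, -0.48 and 0.32 on its brightest probe set and -0.65, -0.95 and -0.07 on the other, lower at weeks 2 and 4 on both. B2m, the light chain of every class I molecule, read 26886 versus 21131 at week 2, 32314 versus 18055 at week 4 and 40023 versus 38196 at week 10. The high-fat array was lower at each week, by log2 differences of -0.35, -0.84 and -0.07. The other probe set also read lower each time, at -0.24, -0.98 and -1.06, so the probe sets part at week 10. On it the mean difference was -0.76 (standard error 0.242, n = 3 weeks, limma adjusted p = 0.993). B2m is among the brightest features of these arrays, and hepatocyte markers, bright as well, had medians of -0.13, -0.84 and -0.48 over 9 genes. At week 4 the class I median was -0.19 after loess on brightness, where it was -0.23 without it, and no member was then 1.5-fold lower. The same count was 0 under quantile normalization. It was also 0 without shared probe sets, but B2m and H2-K1 have no other kind and drop out, so that count cannot speak to them. The part of brightness in these values was not tested.

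The classical heavy chains H2-K1 and H2-D1 are alike in sequence, and most of their probe sets are of a type that several transcripts share, so that a value belongs to the family rather than to 1 gene. H2-K1 had 0.05, -0.74 and 0.08 on its brightest of 4 probe sets, and H2-D1 had -0.20, -0.53 and 0.35 on its brightest of 6 tested. At week 4 all 4 of H2-K1 were lower on the high-fat array, from -0.74 to -0.49, and 5 of 6 of H2-D1, the sixth being at the floor on both arrays. At week 2 they disagreed: a probe set of H2-K1 read 4124 versus 14412, a log2 difference of 1.81, and one of H2-D1 had 1.31, while the others lay from -0.20 to 0.54. At week 10, 3 of 4 and 5 of 6 were higher, with a range of -0.49 to 0.44 and of -0.04 to 0.96.

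**Figure D3:**
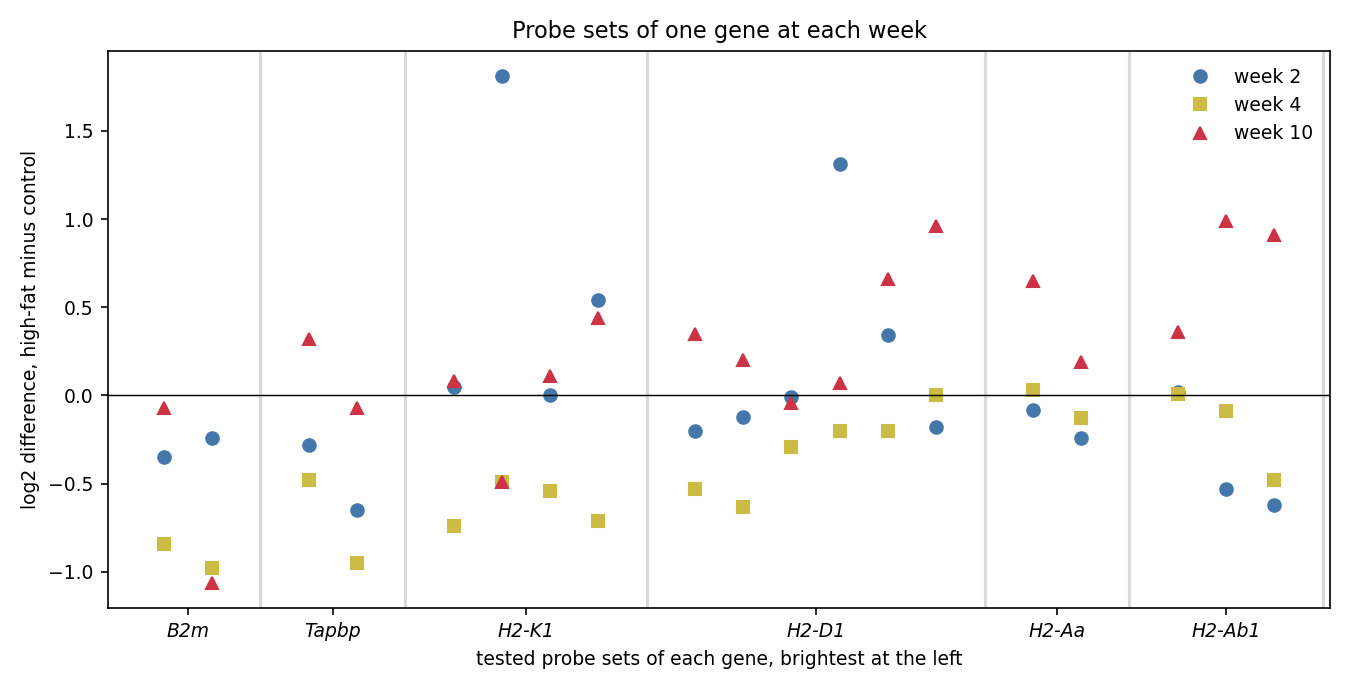
Each column of points is 1 tested probe set of a class I or class II gene that has several, ordered from bright to dim within the gene, and gives its log2 difference, high-fat minus control, at each week. The probe sets of B2m, Tapbp, H2-K1 and H2-D1 lie at or below 0 at week 4, and single probe sets of H2-K1 and H2-D1 stand far above the others at week 2.

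Of the 8 class II probe sets 6 are of the type that several transcripts share. Without these only H2-Eb1 and H2-DMa remain, so the class II median of week 10, 0.00, rests on their 0.37 and -0.38. H2-Aa, the class II gene past 1.5-fold at week 10, then has no value, so a count of 0 past 1.5-fold says nothing of it. H2-Aa, the alpha chain of I-A, read 1882 versus 1779 at week 2, 3077 versus 3145 at week 4 and 2300 versus 3598 at week 10. On this probe set the diets were close at weeks 2 and 4 and 1.56-fold apart at week 10, whereas the dimmer one read -0.24, -0.13 and 0.19, which is 1.14-fold at week 10. H2-Ab1, its beta chain, had log2 differences of 0.02, 0.01 and 0.36 on the brightest probe set, and -0.53, -0.09 and 0.99 and -0.62, -0.48 and 0.91 on the dimmer ones, so all 3 were higher at week 10 and none was clearly higher before. H2-Eb1, the beta chain of I-E, had -0.35, 0.23 and 0.37. Cd74, the invariant chain, had intensities of 2333 versus 1599 at week 2, 2034 versus 1781 at week 4 and 1766 versus 1541 at week 10. It was lower on the high-fat array each time, at -0.54, -0.19 and -0.20, on its single probe set. H2-DMa, which helps peptides onto class II molecules, had 0.06, -0.36 and -0.38.

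Since class II genes mark antigen-presenting cells, the markers of those cells were read beside them. Macrophage and Kupffer cell markers had medians of -0.10, 0.03 and 0.71 over the 15 of 17 that were tested, and at week 10 all 15 were above the control and 11 at least 1.5-fold. Their summed intensity was 24352 versus 22066 at week 2, 35581 versus 35083 at week 4 and 16412 versus 27570 at week 10, so that among weeks 2 and 10 the control array of week 10 was the lowest; Itgam was below the floor throughout. Along time these markers had a median change from week 2 to week 10 of -0.66 for control and 0.27 for high-fat. Dendritic cell markers had medians of -0.21, 0.00 and 0.69 over 5 genes, and summed to 1217 to 2153 at weeks 2 and 10, with Ccr7 and Clec10a below the floor throughout. At week 4 only 1 dendritic marker was above the floor on each array, so their 0.00 comes from the floor and is no measured likeness. B cell markers had -0.12, 0.14 and 0.41 over 6 genes, with Pax5 below the floor throughout. Their sum of 1115 versus 2383 at week 4 rests on Ighm, which read 336.0 versus 1503 on its brightest probe set and from -0.46 to 0.96 on its 5 others. Neutrophil markers had medians of 0.02, 0.31 and 0.62 over 6 genes, with sums of 1832 versus 1853, 1163 versus 1892 and 1970 versus 2710. Of the 6, 3 had an unadjusted p under 0.05 in limma, all higher, though none passed after adjustment. At that threshold 2 of 8 endothelial and 3 of 9 hepatocyte markers were lower, and 1 of 15 macrophage markers was higher. S100a8 was higher by 1.21 at week 4 and Csf3r by at least 1.61 at week 10, whereas Mpo had -0.48 at week 2 and -0.56 at week 10. Endothelial markers had -0.60, -0.24 and 0.43 over 8 genes, with sums of 9997 versus 6927, 11977 versus 9778 and 6942 versus 9767. T and NK cell markers had 0.02, 0.00 and -0.36 over 4 genes, with Cd3d and Cd4 below the floor throughout. Of these markers 2 were above the floor on each array of week 4, so that 0.00 also rests on genes at the floor. The part of these cells in the class II and interferon values was not tested.

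**Figure D4:**
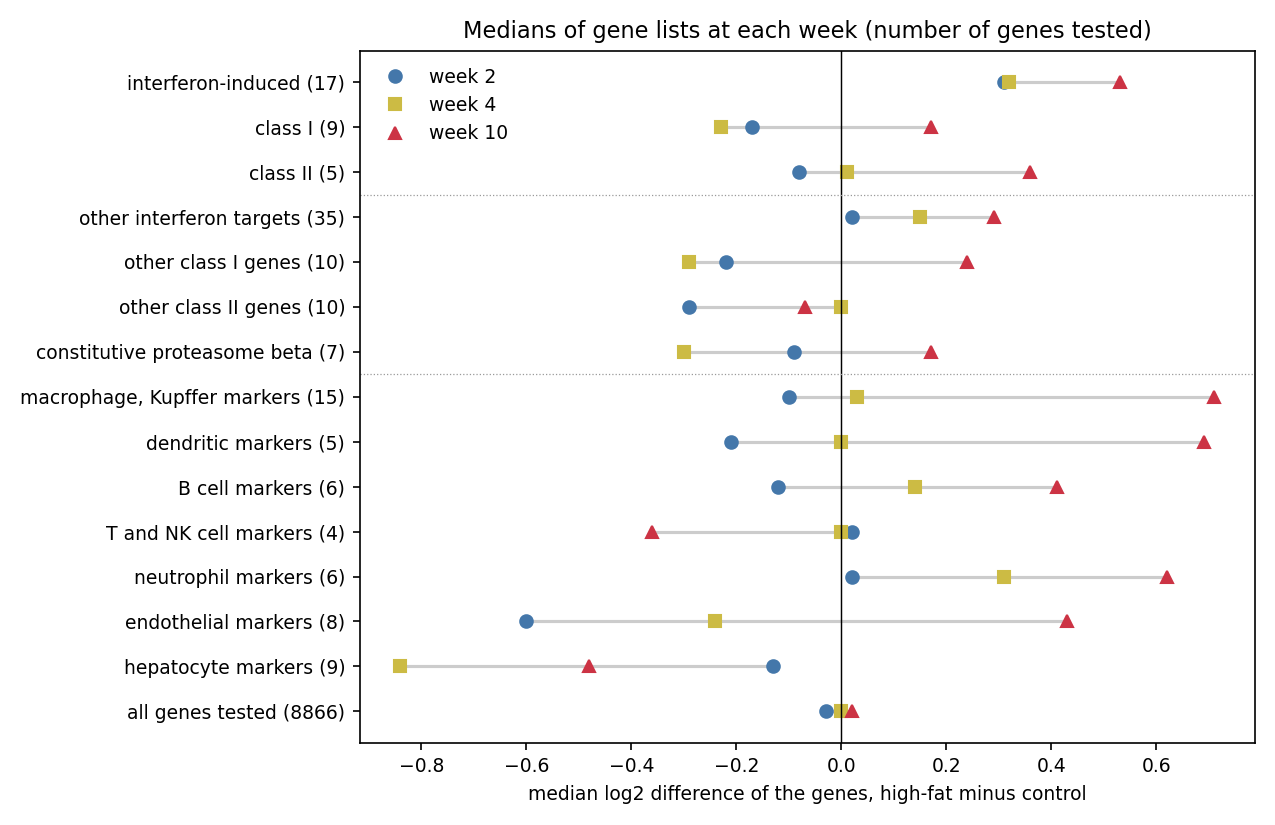
Points give the median log2 difference, high-fat minus control, of each gene list at each week, with the number of genes tested in parentheses; the lists are members at the top, other pathway genes in the middle, and cell type markers and all genes at the bottom. The interferon-induced genes are the member class whose 3 medians all lie at or above 0.31 after centring (-0.33 at week 2 as deposited), and the macrophage markers reach 0.71 at week 10 alone.

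Other genes of the pathway were read from lists. Of 51 further interferon targets 35 were tested, and their medians were 0.02, 0.15 and 0.29; 11 of 35 were higher at all 3 weeks, against 8.09% of all genes. At week 10, 9 of 35 were at least 1.5-fold higher and 3 lower, against 13.6% and 12.7% of all genes, and none of the 35 passed the test. Rtp4, a chaperone of receptors, was higher by 1.31 at week 2, and Plscr1, a phospholipid scramblase, by 0.65, 0.70 and 1.0 at the 3 weeks. Gbp7, chosen after its value was seen, had 0.44, 0.47 and 0.68, and 0.13, -0.04 and 0.24 on its other probe set. Samhd1, which breaks down nucleotides, had 1.56 at week 2 and -1.41 at week 10, and Helz2, a helicase, 1.04 and -1.43. Rsad2, or viperin, had -1.08 at week 10 on its brightest probe set, and 0.42 to 0.44 on its others, while those of Samhd1 ran from -0.38 to 0.57 at that week.

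Ligands, receptors, kinases and further factors and inhibitors of the pathway had medians near 0, at 0.11, 0.00 and 0.00 over 21 of 24 genes. At week 4 single genes of this list ran from -0.28 to 0.66. Then 2 were at least 1.5-fold higher and 0 lower, against 3.83% and 6.67% of all genes. Ifnar1 and Ifnar2, the type I receptor, had 0.13, 0.09 and -0.46 and 0.21, -0.24 and 0.17, and Ifngr1, which binds interferon gamma, had -0.80, 0.10 and -0.92. Ptpn2, a phosphatase that ends STAT signals, had 1.11 at week 2 and -1.17 at week 10, and -0.22 and 0.30 on its other probe set, and Socs1, an inhibitor of Janus kinases, had -1.37 at week 10. Nucleic acid sensors had medians of 0.00, 0.00 and -0.25 over 7 genes. Further class I genes had -0.22, -0.29 and 0.24 over 10 genes, which at each week has the sign of the class I members, and further class II genes had -0.29, 0.00 and -0.07 over 10. Genes below the floor on both arrays of a week enter these medians as 0.00. Ciita, the master switch of class II transcription, had 0.22, 0.00 and -0.44, and at week 4 it was below the floor on both arrays, at 68.1 versus 58.4. None of these genes passed the test.

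RNA quality moved with the weeks as well. The log2 difference between diets of the 3'/5' ratio of pyruvate carboxylase, which grows as RNA breaks down, was 1.34 at week 2, 0.87 at week 4 and -0.75 at week 10, and that of beta-actin 0.42, 0.13 and -0.56. The ratio of Gapdh, control versus high-fat, was 0.783 versus 1.01 at week 2, 0.82 versus 0.814 at week 4 and 0.906 versus 0.832 at week 10. It was thus nearly the same for both diets at week 4. After centring, the interferon-induced medians had 1 sign at all weeks. The class I median was below 0 at weeks 2 and 4 and above 0 at week 10, opposite in sign to the pyruvate carboxylase and beta-actin differences. The part of RNA quality in these values was not tested.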

How the data were processed

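Liver RNA of 6 arrays was analysed. The authors deposited 1 linear intensity for every probe set. From the values, the arrays of weeks 2 and 10 have a trimmed mean of 500.0, except for 800.0 on the control array of week 2; no source used here names the software that made them. The intensities were put on the log2 scale after 64 control probe sets were left out. Centring used the median of those probe sets that exceeded the floor on all arrays. Values under the floor, the pooled 40th percentile (log2 of 7.28), were replaced by it, so a difference is a bound where either diet is there. Of 22626 probe sets, 14533 above the floor on at least 3 of 6 arrays were tested (limma 3.58.1, R 4.3.3; lmFit, then eBayes, week as a block, Benjamini-Hochberg at 0.05). The brightest tested probe set stood for a gene, which gave 8866 genes. Symbols of the platform annotation were updated through the gene identifier; of the members, 31 genes and 46 probe sets passed the filter. Single weeks were not tested, having 1 array per diet, and precision is bounded by how few arrays there are.

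Members and lists were chosen with earlier results of these data known. All members are named, and of the pathway lists those at least 2-fold different on 2 measured arrays; Ifnar1, Ifnar2, Ifngr1, Ciita and the constitutive proteasome subunits that pair with members, and Gbp7, were chosen after their values were seen. Alternatives were another scaling, floor, filter, variance model, probe set choice or unit of the fit, no week block, loess on brightness and leaving out a week; the count of genes higher at all weeks without a week was added after the data were seen. The fit was tested on simulated data. It recovered 5.97% of probe sets with a true log2 difference of 1, 62.7% at 2 and 97.0% at 4, with 2 false calls. Differences of the size seen in the members would thus mostly go uncalled. Figures were drawn with matplotlib 3.10.9.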

Additional observations from a re-analysis of the deposited data

Results flagged for a closer look

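A dim probe set of H2-Ab1 changed direction between weeks: its log2 difference, high-fat minus control, was -0.62 at week 2 and 0.91 at week 10, past 1.5-fold each time. Each value rests on 1 array per diet, and the difference between the weeks was not tested. It is a bound at both weeks, since the high-fat array of week 2 and the control array of week 10 lay below the floor.

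Probe sets of the larger array alone, which enter no comparison across the weeks, gave week 4 values above the control array for Ifi35, at 0.46, and for H2-Aa, at 0.06. A further probe set of Ifi35 on that array was lower, at -0.38, and 3 others of the members were below the floor on both arrays.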

How the results depend on the processing

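No member passed the limma test under any of the 14 alternatives. Over all probe sets, the number called was 2, and became 10 with the intensities as deposited, 1 with trend and robust eBayes, and 0 under quantile normalization, the 20th and 60th percentile floors, no filter, loess on brightness, omission of shared probe sets, averaging of a gene's probe sets and no week block; leaving out a week gave 0 to 9, being 9 without week 2, 0 without week 4 and 6 without week 10. The cause was not tested. With the intensities as deposited, week 2 shifts by -0.67 over all genes, because the control array of that week has a higher scaling target; then 18 member genes were 1.5-fold lower and 0 higher at week 2, and the interferon-induced median was -0.33, which is 0.34 above that of all genes. At week 2 the count of higher members was 0 at the 60th percentile floor and 2 at the 20th or when a gene's probe sets were averaged, and 1 was lower under quantile normalization. At week 4 the higher count was 1 under quantile normalization, at the 60th percentile floor or when shared probe sets were omitted. The lower count was 0 under quantile normalization, loess and without shared probe sets. Genes that have only shared probe sets, among them Gbp3, B2m and H2-K1, drop out when these are omitted, so those counts cover fewer genes. At week 10 the lower count was 2 under quantile normalization, at the 20th percentile floor and after loess, and 0 when probe sets were averaged, while the higher count ran from 6 to 11. Interferon-induced medians ran from 0.21 to 0.40 at week 4 and from 0.49 to 0.60 at week 10, and class I at week 4 from -0.23 to -0.15. Of the 17 interferon-induced genes tested, 12 had a mean difference above 0 in every setting that gave a value. The same held for 1 of 9 class I genes and 0 of 5 class II genes. The share of all genes was not computed, and every setting reuses the same 6 arrays. With 1 array per diet and week, precision is limited by the number of arrays.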
